A study of Mus musculus with 9 samples.

Results

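Antibody heavy chain variable segments (Ighv) were described in mouse lung as the rows of the expression table whose symbol starts with Ighv and that held at least 1 TPM in at least 3 of 9 libraries. The rule was met by 83 of 185 Ighv rows, among 15487 of 57010 rows of all kinds that met the same abundance line. TPM is a level per transcript length, scaled so that all libraries sum to an equal amount. The members were selected on their TPM in these libraries, which favours segments that were high in any 3 of them, so levels and group differences of the members are partly set by the choice.

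The libraries came from 9 mice of the inbred laboratory strain C57BL/6J, 1 lung sample from each, with 3 mice in each of 3 groups, and all lungs were taken on day 7. Control mice had 100 µl of saline placed in the trachea. CuO mice received 1 instillation of the same volume with copper oxide nanoparticles at 2 mg/mL, and CuO_TTM mice received those particles and had TTM, an abbreviation that the labels leave unexplained, at 0.02 mg/mL in their drinking water. No group received TTM without particles. The material was whole lung tissue with whatever blood it held, so more antibody-producing cells and more antibody RNA per cell cannot be told apart.

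A B cell builds its heavy chain gene by joining 1 V segment to a D and a J segment, so each B cell clone uses a single Ighv segment, which codes for most of the antigen-binding domain. After the switch of class, the same V segment is carried with another constant region, such as gamma or alpha. Plasma cells, the antibody-secreting end stage, hold far more of this RNA than resting B cells, so that levels in tissue follow both the number of cells and their state.

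The segments are related copies that lie side by side on chromosome 12. Shown here, to let their likeness be seen, are the 4 that led a library and Ighv1-82, the second highest by mean, as the last 294 bases of the GENCODE vM21 transcript (build GRCm38), which hold the V region without its leader. Ighv1-19 (ENSMUSG00000096410) is in lower case. Capitals in Ighv1-82 (ENSMUSG00000095127), Ighv1-72 (ENSMUSG00000096074), Ighv1-55 (ENSMUSG00000095589) and Ighv14-3 (ENSMUSG00000095642) mark bases that differ from Ighv1-19 at the same position, 44, 45, 42 and 66 of them.
Ighv1-19: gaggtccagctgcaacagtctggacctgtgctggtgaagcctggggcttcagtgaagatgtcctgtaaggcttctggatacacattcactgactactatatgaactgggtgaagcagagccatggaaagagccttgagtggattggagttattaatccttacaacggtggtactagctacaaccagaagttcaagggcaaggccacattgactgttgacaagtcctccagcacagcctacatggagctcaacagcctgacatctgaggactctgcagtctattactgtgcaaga
Ighv1-82: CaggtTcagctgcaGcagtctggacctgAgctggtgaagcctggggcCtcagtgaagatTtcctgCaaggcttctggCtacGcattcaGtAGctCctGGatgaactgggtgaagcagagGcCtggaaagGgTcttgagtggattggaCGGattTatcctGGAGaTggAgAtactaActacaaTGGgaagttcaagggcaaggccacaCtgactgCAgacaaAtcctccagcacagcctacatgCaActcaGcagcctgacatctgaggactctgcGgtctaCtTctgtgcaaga
Ighv1-72: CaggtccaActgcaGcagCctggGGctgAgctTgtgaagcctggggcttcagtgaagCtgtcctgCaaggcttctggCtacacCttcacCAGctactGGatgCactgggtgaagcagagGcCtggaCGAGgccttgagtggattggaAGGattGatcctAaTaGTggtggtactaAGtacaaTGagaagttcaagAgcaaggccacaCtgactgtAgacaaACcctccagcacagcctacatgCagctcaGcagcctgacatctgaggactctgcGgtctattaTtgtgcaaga
Ighv1-55: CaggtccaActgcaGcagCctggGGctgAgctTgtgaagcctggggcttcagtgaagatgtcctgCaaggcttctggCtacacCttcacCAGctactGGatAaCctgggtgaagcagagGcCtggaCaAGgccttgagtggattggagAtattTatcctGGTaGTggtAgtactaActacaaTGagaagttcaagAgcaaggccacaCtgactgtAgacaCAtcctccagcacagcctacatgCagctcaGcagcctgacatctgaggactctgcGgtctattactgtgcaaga
Ighv14-3: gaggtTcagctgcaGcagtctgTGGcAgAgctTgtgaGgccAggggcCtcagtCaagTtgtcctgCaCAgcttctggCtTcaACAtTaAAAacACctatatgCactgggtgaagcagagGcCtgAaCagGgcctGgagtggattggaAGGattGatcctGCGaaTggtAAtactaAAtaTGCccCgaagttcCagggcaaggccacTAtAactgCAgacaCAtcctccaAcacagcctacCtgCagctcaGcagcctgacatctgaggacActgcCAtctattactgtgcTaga

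Over all 83 members, the median identity of these 294 bases was 86.1% within a family, the number before the first hyphen of the symbol, and 59.9% between families. No pair of members was identical, and 7 pairs, holding 13 members, shared at least 97% of the bases. They were Ighv1-61 with Ighv1-52, Ighv1-7 with Ighv1-4, Ighv1-18 with Ighv1-26, Ighv1-69 with Ighv1-50 and with Ighv1-59, Ighv14-4 with Ighv14-1, and Ighv8-13 with Ighv8-9. Ighv1-72 differed at only 2 bases from Ighv1-62-3, which is no member. Reads can be shared between such copies, so values of single segments are uncertain where a near copy exists, while sums over segments are less exposed. In the 3 control libraries Ighv1-80 and Ighv1-81, which were not among the 7 pairs, were listed at equal values of 4.32, 6.96 and 2.80 TPM. They differed in the other libraries, with 115 and 26.5 TPM in CuO_TTM replicate 1 and 41.3 and 105 TPM in CuO_TTM replicate 3.

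Of the 113 rows annotated as V genes, 82 were members, and of the 70 annotated as V pseudogenes only Ighv1-2 was. In all, 82 of the 185 Ighv rows were listed at 0 in every library and 20 more were above 0 without meeting the rule. Just inside the line were Ighv7-1 and Ighv1-2, whose third-highest libraries held 1.40 and 1.52 TPM. Just outside was Ighv2-4, with 3.43, 0.77 and 0.99 TPM in CuO_TTM and 0 elsewhere. Ighv1-43 and Ighv1-11 followed, each with a third-highest value of 0.68 TPM. The 6 control and CuO libraries alone placed 59 segments inside, and the other 24 needed a CuO_TTM library.

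Libraries stood apart in ways that touch these values. CuO replicate 1 was low in variable relative to constant segments of every antigen receptor examined. Its summed Ighv TPM were 0.189 times those of the heavy chain constant genes, against 1.37 to 2.56 times in the other 8 libraries. The ratio of kappa light chain segments to Igkc was 0.335 in that library and 1.55 to 3.13 in the others, and that of T cell receptor beta V segments to Trbc1 and Trbc2 was 0.137 against 1.15 to 2.03. In an antibody or receptor mRNA the variable segment lies at the 5′ end and the constant region at the 3′ end. Deviations of genes from their mean over libraries on the log2 scale had a median of -0.59 in that library and of -0.18 to 0.29 in the others. The median of the shortest 20% of genes lay above that of the longest 20% by 0.38 in CuO replicate 1 and by 0.33 in CuO_TTM replicate 1, and the difference was -0.26 to 0.05 in the other 7. The part of these shifts in the results was not tested. Counts of calls over all members are given with and without CuO replicate 1. So are printed called values that it moved past the threshold or by over 1.5 times. CuO_TTM replicates 2 and 3 held only 0.180% and 0.353% of their TPM as the club cell gene Scgb1a1, which took 6.90% to 22.5% in the other libraries.

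**Figure D1:**
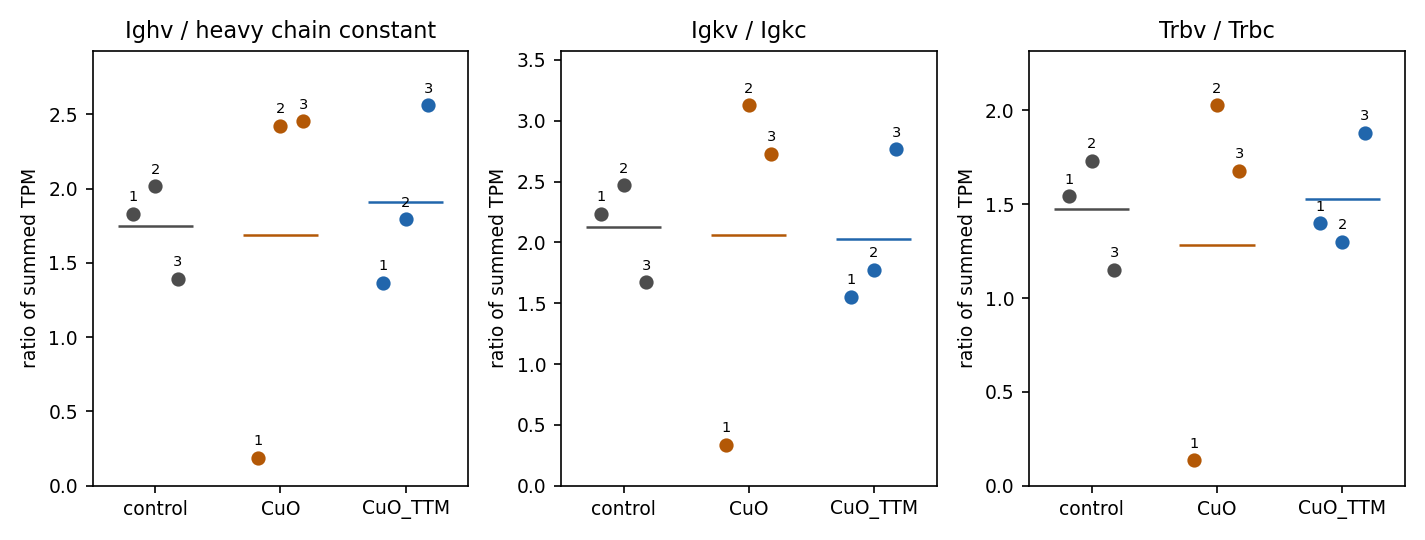
Ratio of summed variable to summed constant TPM for the heavy chain, the kappa chain and the T cell receptor beta chain, by group (x axis). Points are libraries with their replicate number and bars are group means. CuO replicate 1 is the lowest point in each panel, at 0.189, 0.335 and 0.137.

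Summed Ighv TPM were highest in every CuO_TTM library. The control libraries held 406, 457 and 276 TPM, the CuO libraries 37.5, 611 and 1282 TPM, and the CuO_TTM libraries 3165, 3829 and 4142 TPM. The CuO_TTM group did not overlap either of the others, and its lowest library was 2.47 times the highest CuO library and 6.93 times the highest control library. The CuO group spanned the control range on both sides, with replicate 1 below it and replicates 2 and 3 above it. Group means were 380 ± 93.3 TPM in control, 644 ± 623 TPM in CuO and 3712 ± 499 TPM in CuO_TTM (SD, n = 3 each). The ratio of the CuO_TTM mean to the CuO mean was 5.77, and 3.92 without CuO replicate 1. The ratio of the CuO mean to the control mean was 1.70, and 2.49 without that library. The sums cover all 185 Ighv rows and are given as a description, with no test.

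**Figure D2:**
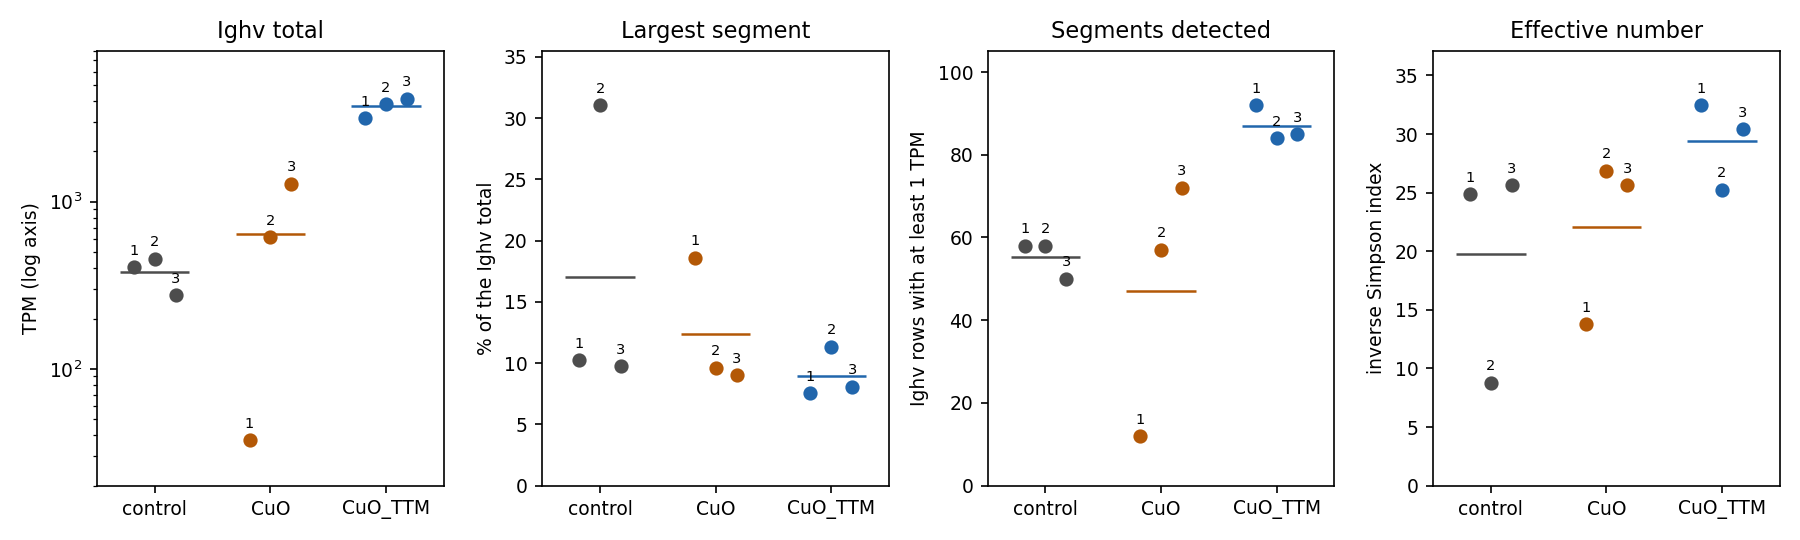
Summed Ighv TPM (log axis), share of the largest segment (% of the sum), number of Ighv rows with at least 1 TPM, and effective number of segments (inverse Simpson index), by group. Points are libraries with their replicate number and bars are group means; the CuO_TTM sums of 3165 to 4142 TPM lie above all others, and control replicate 2 stands out with a largest share of 31.1%.

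The higher sums were spread over many segments. The number of Ighv rows with at least 1 TPM was 58, 58 and 50 in control, 12, 57 and 72 in CuO and 92, 84 and 85 in CuO_TTM. Such a count moves with the sum itself, and with depth. In 7 libraries low values of segments with a transcript of 351 bases lay on multiples of a step of 0.45 to 0.94 TPM, so the line of 1 TPM is passed within 2 or 3 steps. At a line of 10 TPM the counts were 10, 8 and 5 in control, 0, 20 and 31 in CuO and 61, 56 and 60 in CuO_TTM, and the CuO_TTM libraries were again the highest.

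Evenness, which does not use the level of the sum, differed less between the groups. The segments needed to reach 50% of the sum numbered 9, 5 and 10 in control, 6, 10 and 9 in CuO and 12, 9 and 12 in CuO_TTM. The groups overlapped in this count. To reach 90% of the sum took 40, 37 and 38 segments in control, 19, 37 and 39 in CuO and 46, 42 and 41 in CuO_TTM. In that count every CuO_TTM library lay above all control and CuO libraries, which also had lower sums. The effective number of segments, the inverse Simpson index of the shares, was 24.9, 8.76 and 25.6 in control, 13.8, 26.9 and 25.6 in CuO and 32.5, 25.2 and 30.4 in CuO_TTM. The lowest 2 were control replicate 2 and CuO replicate 1, and CuO_TTM replicate 2 lay among the remaining control and CuO libraries.

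**Figure D3:**
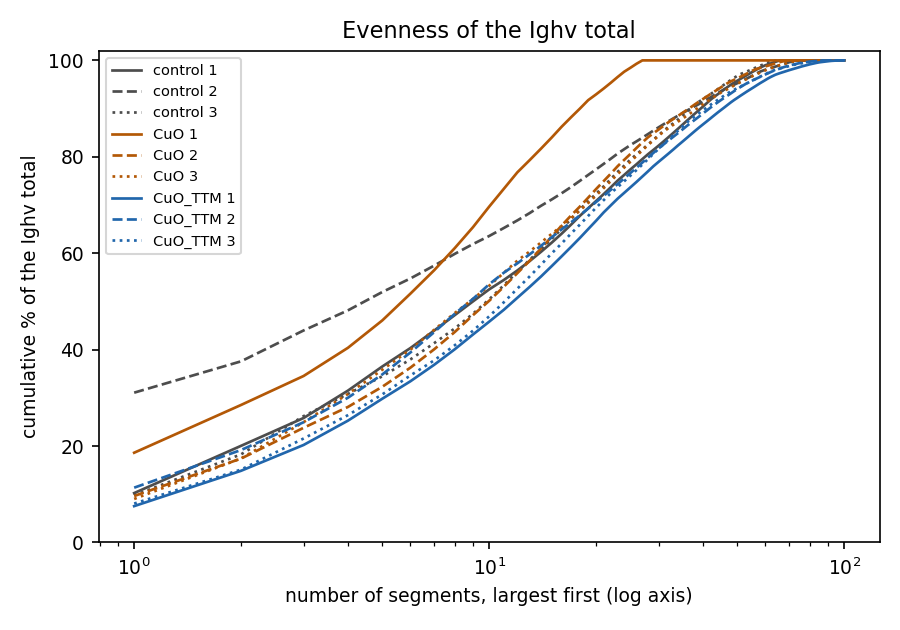
Cumulative share of the Ighv sum (y axis, %) against the number of segments added from the largest down (x axis, log axis), with 1 line per library. Control replicate 2 and CuO replicate 1 rise fastest, reaching 50% with 5 and 6 segments, and the other 7 libraries reach it with 9 to 12.

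The largest segment took a modest share in most libraries. It was Ighv1-19 in control replicate 1 (10.2% of the sum), CuO replicates 1 and 2 (18.6% and 9.63%) and CuO_TTM replicates 1 and 3 (7.53% and 8.06%). Ighv1-72 led in CuO replicate 3 (9.02%) and in CuO_TTM replicate 2 (11.4%), and Ighv1-55 in control replicate 3 (9.76%). Group means of the largest share were 17.0 ± 12.2% in control, 12.4 ± 5.37% in CuO and 8.99 ± 2.07% in CuO_TTM (SD, n = 3 each), and the groups overlapped. Without CuO replicate 1 the CuO mean was 9.33%.

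Control replicate 2 was the exception. Ighv14-3 held 142 TPM there, 31.1% of the sum, while its highest share in any other library was 5.08%. The same library had a kappa segment of large share, Igkv17-121, with 19.7% of the summed Igkv TPM against at most 2.00% elsewhere. A leading kappa segment far above its share in any other library was not particular to control replicate 2. Igkv6-13 held 9.93% in CuO replicate 3, and Igkv4-55 held 11.1% in CuO_TTM replicate 1. The constant gene Ighg2c, which encodes the IgG2c heavy chain, stood at 62.3 TPM in control replicate 2. It stood at 16.1 and 11.9 TPM in the other control libraries. The table does not tie a heavy chain segment to a light chain segment or to a constant gene.

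A few other segments were high in a single library, and these were picked out after their values were seen. Ighv1-78 held 96.3 TPM in CuO replicate 3, 7.51% of the sum, with at most 2.99% in any other library. Ighv1-84 held 58.2 TPM in CuO_TTM replicate 1, 1.84% of the sum against at most 0.377% elsewhere. Ighv8-2, which is no member, held 46.2 TPM in CuO_TTM replicate 3, 0.63 TPM in CuO_TTM replicate 1 and was listed at 0 in the other 7 libraries.

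The same segments tended to lead. Ighv1-19, Ighv1-82 and Ighv1-55 were among the 10 largest in all 9 libraries. Ighv1-19, the highest by mean, held 41.6, 29.7 and 23.5 TPM in control, 6.97, 58.9 and 107.9 TPM in CuO and 238, 221 and 334 TPM in CuO_TTM. Ighv1-82, the next, held 20.3, 29.3 and 21.9 TPM in control, 3.71, 47.4 and 64.7 TPM in CuO and 232, 299 and 292 TPM in CuO_TTM. Both were above every other library in all 3 CuO_TTM libraries. Their CuO values lay below all controls in replicate 1 and above all controls in replicates 2 and 3.

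Family Ighv1, the largest with 93 rows and 43 members, took most of the sum. Its share was 72.4%, 47.6% and 69.4% in control, 79.9%, 65.9% and 69.9% in CuO and 64.9%, 66.8% and 71.9% in CuO_TTM, and the groups overlapped. The low control value was that of replicate 2, where family Ighv14 held 32.9% against 0.8% to 6.8% in the other libraries. Family Ighv8 held 5.5%, 5.3% and 6.0% in control, 0.0%, 11.1% and 6.2% in CuO and 7.1%, 8.5% and 8.8% in CuO_TTM. By order along the locus in GRCm38, the third of rows farthest from the D segments, Ighv1-41 to Ighv1-86, gave 33.3% to 51.8% of the sum in control, 44.6% to 54.8% in CuO and 50.5% to 55.9% in CuO_TTM.

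**Figure D4:**
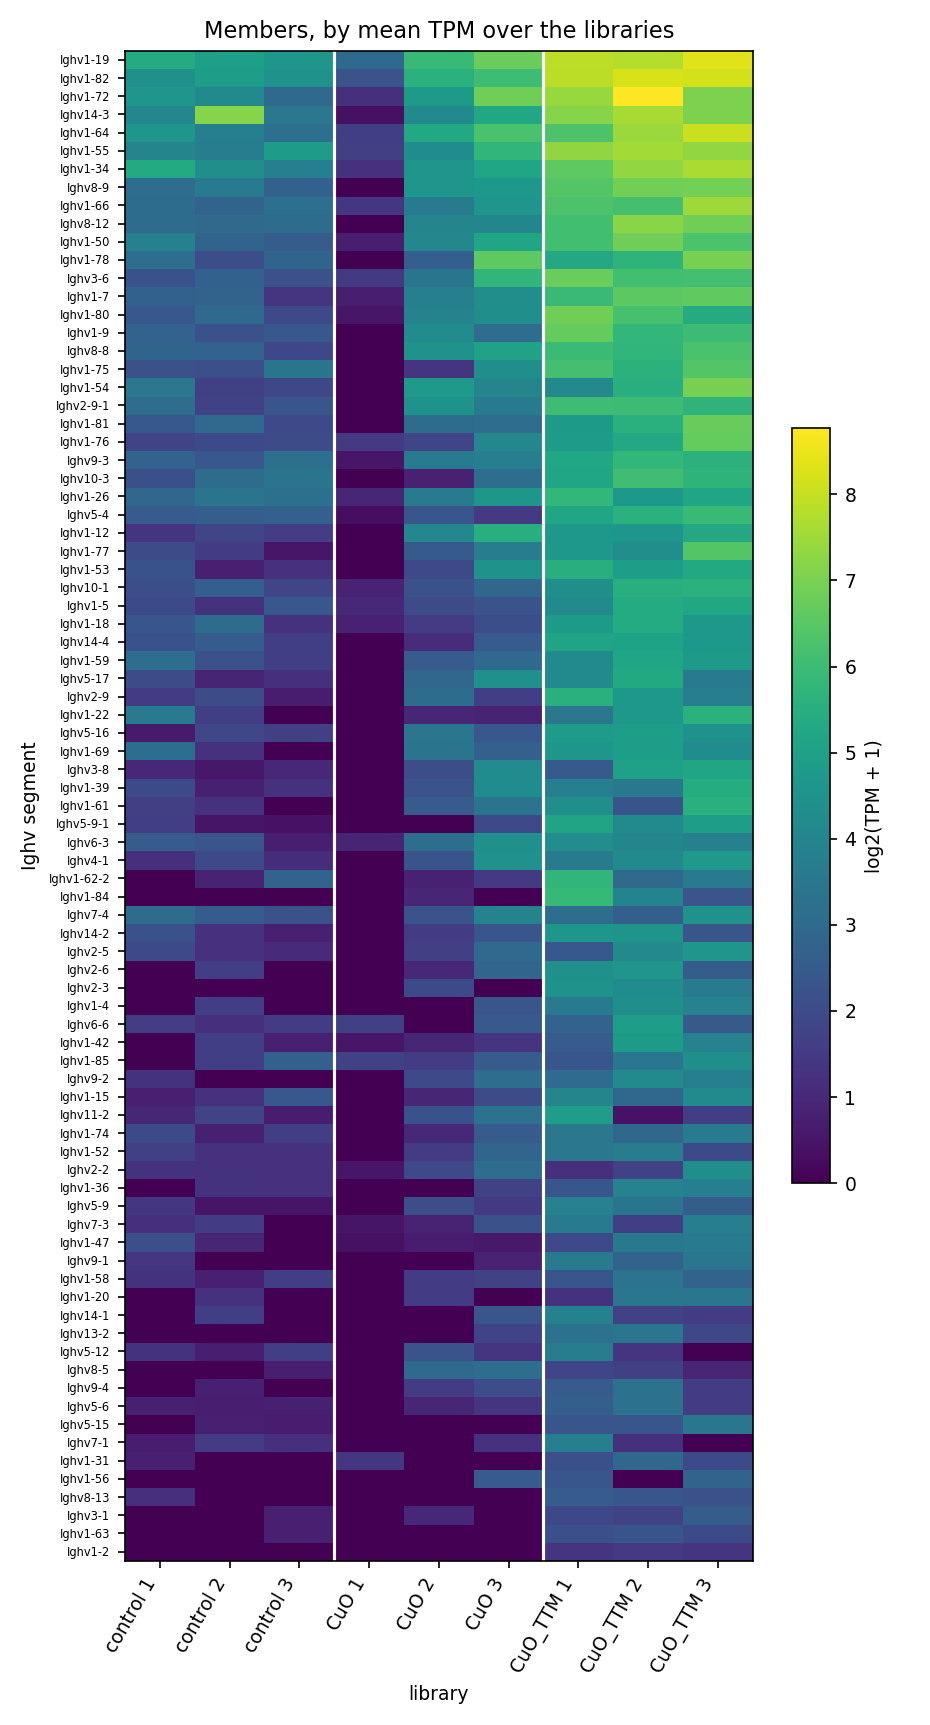
Level of each of the 83 members (rows, ordered by mean TPM) in each library (columns, white lines between groups), as log2(TPM + 1) by colour. CuO_TTM columns are brightest over most rows, the column of CuO replicate 1 is darkest, and Ighv14-3 stands out in control replicate 2 at 142 TPM.

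Differences between groups were tested with limma on log2(TPM + 1) in 1 fit over all 9 libraries, with adjustment by Benjamini and Hochberg over all 15487 genes at 0.05. Instilled particles alone were first set against saline. No member passed, and neither did any other gene, a background of 0.0%. At an unadjusted p under 0.05 there were 2 of 83 members and 7.95% of all genes. The median difference of the members was 0.15 on the log2 scale, against 0.03 over all genes, and 49 of 83 were above 0. Ighv5-4 had the smallest p of the members, at 4.69, 5.30 and 5.42 TPM in control and 0.26, 4.04 and 1.73 TPM in CuO. It was the 1 member whose CuO libraries all lay below control, a pattern held by 3.53% of all genes, and its difference of -1.24 (SE 0.45) had an adjusted p of 0.512 in limma. No member had all CuO libraries above control, against 9.37% of all genes. That count includes CuO replicate 1, whose Ighv sum was 37.5 TPM, and was not made without it. With that library left out, 67 of 83 members had a difference above 0. Next came Ighv8-5 with a difference of 1.82 (SE 0.74, limma adjusted p 0.573) and Ighv10-3 with -1.55 (SE 0.72, limma adjusted p 0.645). Without CuO replicate 1, limma called 3 of 83 members higher in CuO, against 0.228% of all genes, and the median difference of the members was 0.89 against 0.26 over all genes; the called members were Ighv1-12, Ighv8-5 and Ighv8-8.

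Mice given TTM with the particles were then set against mice given the particles alone. Limma called 13 of 83 members higher in CuO_TTM and 0 lower, where 0.691% of all genes were called higher and 0.0194% lower. All CuO_TTM libraries lay above all CuO libraries for 58 of 83 members, against 9.78% of all genes, and for 58 without CuO replicate 1, against 13.9% of all genes. The membership rule favours this direction for the 24 segments that needed a CuO_TTM library. Of the 59 that met the rule without those libraries, 6 were called and 41 did not overlap. The median difference was 2.75 for the members and 0.19 for all genes, and 2.81 over the 59. Under median-ratio scaling the members' median was 2.61 and that of all genes -0.02.

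Of the called members that met the rule without CuO_TTM, Ighv5-4 had the smallest p. It rose from 0.26, 4.04 and 1.73 TPM in CuO to 35.4, 48.0 and 60.9 TPM in CuO_TTM, a difference of 4.21 (SE 0.45, limma adjusted p 0.0156), with no overlap, and of 3.69 (limma adjusted p 0.0206) without CuO replicate 1. Ighv10-3 rose by 4.34 (SE 0.72, limma adjusted p 0.0299), from 0.00, 0.73 and 8.01 TPM to 35.2, 67.0 and 51.4 TPM, and lost its call without CuO replicate 1 (3.68, limma adjusted p 0.0690). Ighv14-4, Ighv1-18, Ighv1-5 and Ighv10-1 were the other 4, with differences of 3.17 to 3.75. Of these, Ighv14-4 and Ighv1-18 each belong to a pair of members that share at least 97% of the bases. Without CuO replicate 1, Ighv14-4 (3.15, limma adjusted p 0.0355) and Ighv1-5 (2.80, limma adjusted p 0.0457) kept their calls. Ighv1-18 (3.15, limma adjusted p 0.0506) and Ighv10-1 (2.62, limma adjusted p 0.0530) lost theirs. The remaining 7 called members were among the 24 that needed a CuO_TTM library, for which the rule favours this direction, and are given as a description. Ighv5-9-1 held 0.00, 0.00 and 2.81 TPM in CuO and 33.5, 17.5 and 28.8 TPM in CuO_TTM, and Ighv2-3 and Ighv9-1 were above 0 in 1 CuO library each. Without CuO replicate 1, Ighv5-9-1, Ighv2-3, Ighv9-1 and Ighv8-13 lost their calls (limma adjusted p 0.0506 to 0.0595). Ighv1-63, Ighv5-15, Ighv8-13 and Ighv1-2 were listed at 0 in all CuO libraries, so no fold is given. The last of them is the pseudogene, at 1.58, 1.77 and 1.52 TPM in CuO_TTM and listed at 0 in all control and CuO libraries.

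The most abundant segments were not among the called ones. None of the 10 highest by mean passed, with limma adjusted p of 0.0766 to 0.426, although all 10 had every CuO_TTM library above every CuO library and differences of 2.81 to 4.05. Ighv1-19 had a difference of 2.81 (SE 0.79, limma adjusted p 0.232). For Ighv1-72 the values were 1.27, 26.4 and 116 TPM in CuO and 169, 435 and 130 TPM in CuO_TTM, a difference of 3.46 (SE 1.19, limma adjusted p 0.386). In both, CuO replicate 1 was far below the other CuO libraries. Without that library, the differences of the 10 were 1.49 to 2.71, with 1.69 for Ighv1-19 and 1.92 for Ighv1-72. Limma then called 3 of the 10, namely Ighv1-82, Ighv8-9 and Ighv8-12, and 11 of all 83 members, of which 6 were among the 13, against 0.351% of all genes called higher. The median difference was then 1.93 for the members and -0.03 for all genes. With all libraries, the only member with a negative difference was Ighv8-5 at -0.59 (SE 0.74, limma adjusted p 0.888), with 0.00, 7.02 and 8.05 TPM in CuO and 2.53, 2.16 and 0.92 TPM in CuO_TTM, and the groups overlapped through the 0 of CuO replicate 1. Without that library 4 members were below 0, and Ighv8-5 was at -1.62 (limma adjusted p 0.116).

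**Figure D5:**
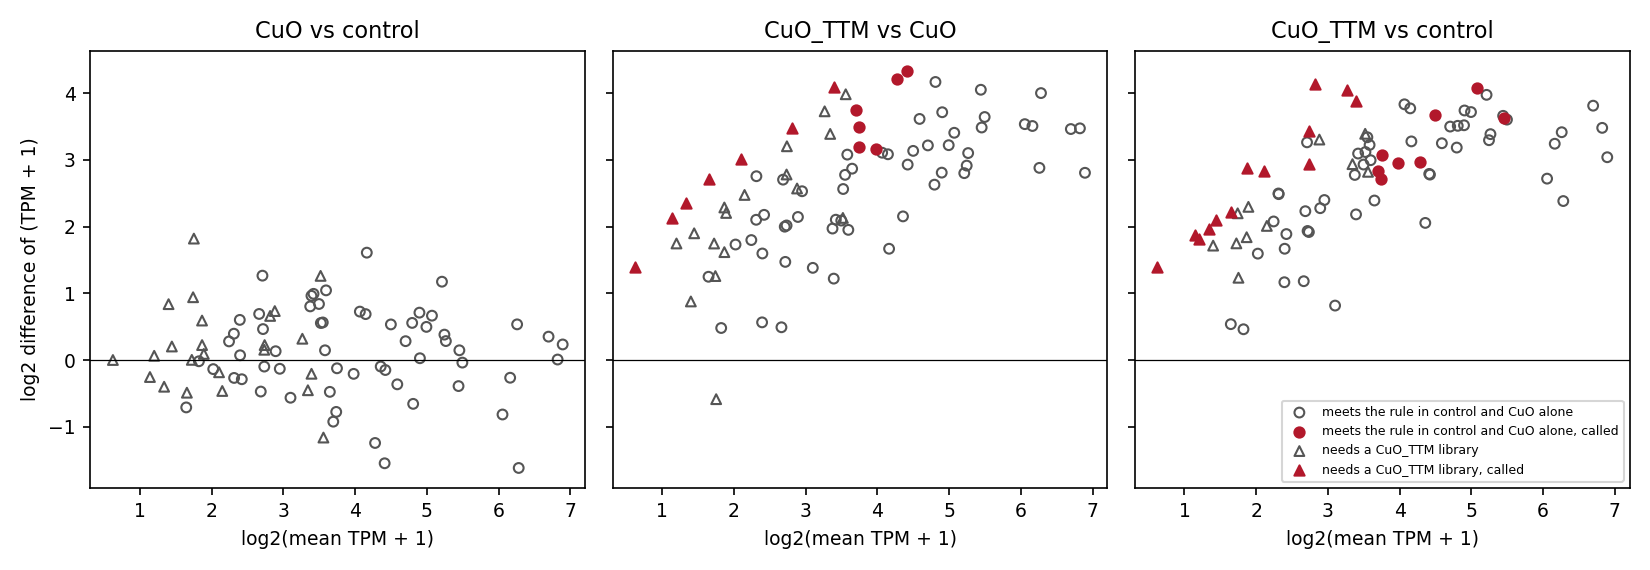
Difference of log2(TPM + 1) (y axis) against log2(mean TPM + 1) (x axis) for the 83 members in the 3 comparisons. Filled symbols passed limma at an adjusted p of 0.05, and triangles mark the 24 members that needed a CuO_TTM library; against CuO the called members lie at low and middle levels, with none of the 10 most abundant among them.

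Against saline controls, limma called 21 of 83 members higher in CuO_TTM and 0 lower, beside 1.79% of all genes called higher and 0.11% lower. No overlap with control was seen for 72 of 83, against 31.0% of all genes, and of the 59 members that met the rule without CuO_TTM, 8 were called and 52 did not overlap. The median difference was 2.88, against 0.24 over all genes. This comparison shares its CuO_TTM libraries with the one before, and 12 members were called in both. Ighv1-66 was the 1 called member of the 10 most abundant, with 7.52, 5.91 and 8.25 TPM in control and 78.3, 71.6 and 178.6 TPM in CuO_TTM, a difference of 3.63 (SE 0.70, limma adjusted p 0.0380). Ighv5-4 rose by 2.97 (SE 0.45, limma adjusted p 0.0208) and Ighv1-5 by 3.07 (SE 0.46, limma adjusted p 0.0208). Ighv2-3, which met the rule only through the CuO_TTM libraries, was listed at 0 in all controls and held 21.9, 18.2 and 11.3 TPM in CuO_TTM. Ighv14-3 had a difference of 2.38 (SE 1.23, limma adjusted p 0.347), and its groups overlapped because of the 142 TPM in control replicate 2. Without CuO replicate 1, whose spread enters the shared error, 65 members were called, 9 of them among the 10 most abundant, against 9.74% of all genes.

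The calls depend on single libraries. Without CuO_TTM replicate 2 limma called 0 members in both comparisons, against 0.00654% of all genes higher than in CuO and 0.0392% higher than in control. Without CuO_TTM replicate 3 it called 1 member against CuO and 0 against control, against 0.216% and 0.0261% of all genes. Without control replicates 1, 2 or 3 in turn, 2, 0 and 2 members were called against control, and 0.0522%, 0.0195% and 0.182% of all genes. The differences moved little in these 5 fits, over the 77 to 83 members tested in each, with medians of 2.68 and 2.74 against CuO without either CuO_TTM library and of 2.78 to 2.91 against control. Ighv5-4 stayed within 3.69 to 4.69 against CuO and within 2.78 to 3.17 against control when any 1 library was left out.

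Constant region genes, which are spliced to the V segments in the mRNA, were called in the same direction. Limma called 4 of 7 tested heavy chain constant genes higher in CuO_TTM than in CuO and 5 of 7 higher than in control, against 0.691% and 1.79% of all genes. Their median differences were 2.55 and 3.78 on the log2 scale. Igha, which encodes the IgA heavy chain of mucosal antibodies, held 63.1, 53.3 and 121 TPM in control, 78.1, 124 and 270 TPM in CuO and 692, 1117 and 988 TPM in CuO_TTM. It rose by 2.72 over CuO (SE 0.47, limma adjusted p 0.0368), a call that was lost without CuO replicate 1 (2.31, limma adjusted p 0.0778). Ighg1, Ighg2b and Ighg3, of the IgG classes, were called in both comparisons, and Ighg2c, also IgG, against control (adjusted p 0.0254, limma) and not against CuO (adjusted p 0.180, limma). Ighm, of IgM, the class made before switching, was at 1001 TPM in CuO_TTM replicate 1 and at 82.1 and 62.8 TPM in the other CuO_TTM libraries, beside 42.4 to 96.7 TPM in control, and passed in neither. Igkc, the kappa constant gene, rose by 2.55 over CuO (SE 0.32, limma adjusted p 0.0156).

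Limma called 2 of 15 plasma cell genes higher in CuO_TTM than in CuO, and the same number higher than in control, against 0.691% and 1.79% of all genes. All CuO_TTM libraries lay above all CuO libraries for 7 of the 15, against 9.78% of all genes. They lay above all control libraries for 10 of the 15, against 31.0% of all genes. Mzb1, a chaperone of antibody assembly, held 7.40 to 9.26 TPM in control, 5.72 to 7.61 TPM in CuO and 31.5 to 70.9 TPM in CuO_TTM, a rise of 2.58 over CuO (SE 0.31, limma adjusted p 0.0156). Jchain, which joins IgA and IgM units, rose by 2.98 over CuO (SE 0.51, limma adjusted p 0.0369). Without CuO replicate 1 its rise was 2.29 (limma adjusted p 0.0284). The summed level of the list was 485 to 573 TPM in control, 383 to 716 TPM in CuO and 1037 to 1102 TPM in CuO_TTM. Of these sums, Jchain alone held 27.0 to 35.5 TPM in control, 15.2 to 83.9 TPM in CuO and 284 to 401 TPM in CuO_TTM. The median differences of the list were 0.63 over CuO and 0.91 over control, against 0.19 and 0.24 for all genes. Without CuO replicate 1 the median over CuO was 0.32, and 7 of the 15 genes were called higher than in control, against 9.74% of all genes.

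Genes of B cells before that stage did not pass. None of 16 B cell genes was called in any comparison, with medians of -0.74 for CuO against control, 1.26 for CuO_TTM against CuO and 0.37 for CuO_TTM against control. Over all genes these medians were 0.03, 0.19 and 0.24. All CuO_TTM libraries lay above all CuO libraries for 8 of the 16, against 9.78% of all genes. They lay above all control libraries for 1 of the 16, against 31.0% of all genes. The B cell receptor gene Cd79a held 30.1, 27.1 and 10.8 TPM in control, 7.95, 8.75 and 6.65 TPM in CuO and 82.6, 18.0 and 13.9 TPM in CuO_TTM. Their summed level was 349 TPM in CuO_TTM replicate 1, the library with high Ighm, and 106 and 94.1 TPM in the other CuO_TTM libraries, beside 60.4 to 174 TPM in control and 69.4 to 76.1 TPM in CuO. Of the germinal centre and switching genes 8 of 10 were tested and none was called. Without CuO replicate 1 limma called 3 of them higher in CuO_TTM than in control, against 9.74% of all genes. Of 5 listed genes of V(D)J recombination, the joining of segments, only Vpreb1 was tested, and it was not called. It held 0.52 to 2.13 TPM in control, 0.39 to 2.08 TPM in CuO and 0.30 to 0.37 TPM in CuO_TTM. Rag1 and Rag2, which cut the segments for joining, stood at most at 0.09 TPM. Dntt and Igll1 stood at most at 0.95 and 0.40 TPM. Among 11 tested genes of homing and survival, Ltb, a lymphoid tissue cytokine, was called in both comparisons with CuO_TTM, though not against CuO without CuO replicate 1 (limma adjusted p 0.0985).

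Markers of other cells moved beside the segments. Of 10 T cell genes, 9 were called higher in CuO_TTM than in CuO and 7 higher than in control, against 0.691% and 1.79% of all genes. Without CuO replicate 1 these counts were 4 and 9, against 0.351% and 9.74% of all genes. The summed level of that list was 139 to 184 TPM in control, 81.2 to 218 TPM in CuO and 688 to 1088 TPM in CuO_TTM. Of 8 club cell and 8 ciliated cell genes none was called, with median differences of -2.25 and -2.28 between CuO_TTM and CuO. Without CuO replicate 1, limma called 4 club cell and 3 ciliated cell genes lower in CuO_TTM than in control. In that fit 1676 of 15374 genes were called in either direction, and 9.74% of all genes were called higher. Summed club cell TPM were 2417 and 4326 in CuO_TTM replicates 2 and 3 and 84033 in replicate 1. The part of these shifts in the Ighv values was not tested. The Ighv sum of CuO_TTM replicate 1, with its higher club cell level, was 3165 TPM, the lowest of the group.

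Genes outside the antibody rows whose log2 level followed the summed Ighv level most closely over the 9 libraries were ranked among 13494 by Pearson's r, as a description. The 10 highest were Adam19, Taf1c, Rpa1, Commd2, Esyt1, Trmt44, Tbc1d4, Ube2d1, Usp36 and Mogs, with r from 0.970 to 0.981. Their range over libraries was narrow beside that of the segments. Adam19 held 12.6 to 15.6 TPM in control, 5.51 to 23.3 TPM in CuO and 22.9 to 28.8 TPM in CuO_TTM. The points share the fixed total of a library and the low values of CuO replicate 1, and without that library r was 0.940 to 0.964.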

How the data were processed

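Poly(A) RNA of 9 lungs was sequenced as stranded paired-end libraries, per the labels' protocols. The authors deposited TPM for 57010 Ensembl identifiers, and the submitters' processing notes name fastp, HISAT2, RSEM, DESeq2 and the build GRCm39, with roles and versions not given in the sources used here. TPM keep no read depth, so no counting intervals were computed. Reads of rearranged, mutated V genes were assigned to germline rows by the authors.

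Symbols matched 52029 identifiers. Values were analysed as log2(TPM + 1) with limma 3.58.1 (trend, R 4.3.3) after a filter of 1 TPM in 3 libraries, with spread shared by all groups, and checked on simulated data. Group differences on this scale understate low genes. Sums, shares and ratios were computed with Python 3.11.15 and pandas 2.3.3. Sequences and gene order came from GENCODE vM21 on GRCm38, another build than that of the table, and coordinates were left out.

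Members and lists were chosen with earlier results of these data known. Named members were the 10 highest by mean, each library's largest, up to 10 called members of smallest p per comparison (else 3) and those beside the threshold, with antibody constant genes and 3 genes of smallest p per list. Single-library segments were added after their values were seen. Each library is a mouse, with 3 mice a group. The p-values use a spread between mice that is pooled over all 3 groups and drawn towards that of other genes, not the spread of the compared groups alone.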

Additional observations from a re-analysis of the deposited data

How the results depend on the processing

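Counts of calls depended on the settings. For CuO against control, where the count of all genes was 0, no filter gave 3, median-ratio scaling 7 and the replicate block 3. For CuO_TTM against CuO, 110 genes and 13 Ighv segments were called; a pseudocount of 0.1 gave 41 and 3, no filter 30 and 4, a mean of at least 5 TPM 67 and 8, and a fit of the 2 groups alone 0 and 0. For CuO_TTM against control, 294 genes and 21 segments were called; a pseudocount of 0.1 gave 183 and 5, no filter 56 and 3, a mean of at least 5 TPM 11 segments, the 2 groups alone 1378 and 64, and TPM without Scgb1a1 121 and 9, with a members' median difference of 2.75 against 2.88. Without CuO_TTM replicates 2 and 3 together all 4 counts were 0, in a fit with 1 CuO_TTM mouse that is assumed to vary like the other groups. The replicate block gave 81 genes and 16 segments against CuO, and 113 and 14 against control. Deviations of same-numbered libraries correlated at -0.37 to 0.29, and those of differently numbered libraries at -0.27 to 0.35. These values cannot decide whether the numbers pair the mice, and no pairing is stated. Leaving out 1 library gave 0 to 35 genes and 0 to 3 segments for CuO against control, 1 to 139 and 0 to 20 for CuO_TTM against CuO, and 3 to 1676 and 0 to 65 for CuO_TTM against control. The alternatives without Scgb1a1, and without both libraries low in it, were chosen after seeing the data. Of 294 calls against control 277 were higher and 17 lower; quantile normalization gave 227 and 64, and median-ratio scaling 211 and 58.

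Without Scgb1a1 the mean Ighv sums were 473, 711 and 3813 TPM in control, CuO and CuO_TTM. Mean numbers of segments detected were 68.0 in control and 92.0 in CuO_TTM at 0.1 TPM, 7.67 and 59.0 at 10 TPM, and 81.3 in CuO_TTM over members alone. Leaving out 1 library moved the mean sums over 341 to 431, 324 to 947 and 3497 to 3985 TPM in control, CuO and CuO_TTM, the largest shares over 10% to 20.7%, 9.33% to 14.1% and 7.80% to 9.71%, and the numbers at 1 TPM over 54.0 to 58.0, 34.5 to 64.5 and 84.5 to 88.5. Directions turned for Pigr without CuO_TTM replicates 2 and 3 (0.11 against CuO, 0.45 against control) and for Ighd in CuO_TTM against control (-0.044 under quantile normalization, -0.24 to 0.61 leaving out 1 library). The cause of these shifts was not tested. Precision is limited by 3 mice a group and by an unknown read depth.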
